A study of Mus musculus with 6 samples.

Results

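The 10 genes described here encode cytokines of Th17 cells and of activated helper T cells more broadly, and were chosen as a list by gene symbol: Il17a, Il17f, Il21, Il22, Il24, Il2, Il3, Csf2, Tnf and Lta. All 10 were found among the 15452 genes of the count table and all 10 passed the filter on low counts. Messenger RNA was sequenced from 2 groups of 3 libraries each. The PDH knockout libraries came from T cells of mice with floxed alleles (written PHD-fl/fl in the titles and PDH in the genotype labels) and the CD4cre transgene, which is active in T cells from the thymus onwards. The WT libraries came from mice with the same floxed alleles and no Cre, so the effect of Cre and that of the deletion cannot be told apart. PDH is pyruvate dehydrogenase, the mitochondrial complex that makes acetyl-CoA from pyruvate. All libraries came from naive CD4+ T cells, taken from spleen and lymph nodes with magnetic beads and held for 3 days under Th17 conditions: plate-bound anti-CD3 at 5 µg/mL, anti-CD28 at 1 µg/mL, anti-IFNγ at 5 µg/mL, IL-6 at 30 ng/mL and TGFβ at 2 ng/mL. The labels give neither the age of the mice nor whether replicates came from separate mice, so p-values measure the spread between these libraries, which may be technical.

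Th17 cells are helper T cells that arise when T cell receptor signals meet IL-6 and TGFβ. Their signature products, IL-17A and IL-17F, form homodimers and heterodimers that act on epithelial and stromal cells to recruit neutrophils. IL-21 acts back on T cells and on B cells, and IL-22 and IL-24 are relatives of IL-10 that act mainly on epithelia. IL-2 drives T cell growth and restrains Th17 differentiation, while IL-3, GM-CSF (the product of Csf2), TNF and lymphotoxin α (the product of Lta) are made by many activated helper cells. Of the 10 genes, 8 lie in 4 pairs of neighbours with no other tested gene between them: Il17a and Il17f on chromosome 1, Il2 and Il21 on chromosome 3, Csf2 and Il3 on chromosome 11, and Tnf and Lta on chromosome 17. Il22 lies on chromosome 10 and Il24 on chromosome 1 (GENCODE M21, GRCm38).

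Total counts ran from 33802154 to 40407124 a library. Levels are CPM, counts per 1000000 counts with TMM scaling. Fold changes are log2 values of knockout over WT ± SE, and a gene is called when its adjusted p in the edgeR quasi-likelihood test is under 0.05. Pdha1, the gene of the E1α subunit of PDH, was at 198, 193 and 186 CPM in knockout libraries and at 256, 236 and 251 CPM in WT libraries. Pdha1 fell by 0.36 ± 0.06 on the log2 scale (edgeR adjusted p = 0.000871). Which PDH gene is floxed is not stated, and loss of single exons is not visible in gene totals. As 24.5% of all tested genes were called lower, the fall of Pdha1 cannot serve as a check of the labels. T cell markers summed to 2818 to 3028 CPM in knockout and 3401 to 3501 CPM in WT libraries, by library totals. Of their 10 genes 7 fell, against 24.5% of all tested genes called lower. Markers of B cells (10 of 10 in the table) summed to 4.80, 62.1 and 101 CPM in knockout replicates 1 to 3 and to 5.72, 31.1 and 5.27 CPM in WT replicates 1 to 3, so that WT replicate 2 and knockout replicates 2 and 3 stand apart. Knockout replicate 2 also held 27 genes over 5 times higher than in either other knockout library, with 5.85% of its counts against 0.191 to 0.390% in the other libraries and no member among them.

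Promoter sequences are shown for both neighbour pairs of T cell growth and Th17 cytokines, Il17a with Il17f, whose transcripts fell together, and Il2 with Il21, which were higher in knockout on average without passing the test. They are the 250 bases before the RefSeq transcription start (GRCm38.p6), written 5′ to 3′ on the gene's strand. The windows are chr1:20730655-20730904 (plus strand) for Il17a, chr1:20784271-20784520 (minus strand) for Il17f, chr3:37125955-37126204 (minus strand) for Il2 and chr3:37232637-37232886 (minus strand) for Il21. Capitals mark every match, on either strand, to 6 short motifs: GGAAA (the core of NFAT sites), TGANTCA (AP-1), AGGTCA (the core of nuclear receptor sites), GGG and CC with any 5 bases between them (NF-κB), TTCNNNGAA (STAT) and TATAAA (the TATA box).
Il17a: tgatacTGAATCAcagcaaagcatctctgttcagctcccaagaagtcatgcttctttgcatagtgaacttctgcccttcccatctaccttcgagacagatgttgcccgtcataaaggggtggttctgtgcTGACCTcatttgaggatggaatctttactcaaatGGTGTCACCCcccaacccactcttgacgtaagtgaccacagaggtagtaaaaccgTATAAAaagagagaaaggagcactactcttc
Il17f: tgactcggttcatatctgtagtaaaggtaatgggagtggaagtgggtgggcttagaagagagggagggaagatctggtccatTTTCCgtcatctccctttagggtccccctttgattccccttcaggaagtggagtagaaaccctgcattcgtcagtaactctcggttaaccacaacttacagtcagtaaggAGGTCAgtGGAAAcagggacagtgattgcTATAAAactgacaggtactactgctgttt
Il2: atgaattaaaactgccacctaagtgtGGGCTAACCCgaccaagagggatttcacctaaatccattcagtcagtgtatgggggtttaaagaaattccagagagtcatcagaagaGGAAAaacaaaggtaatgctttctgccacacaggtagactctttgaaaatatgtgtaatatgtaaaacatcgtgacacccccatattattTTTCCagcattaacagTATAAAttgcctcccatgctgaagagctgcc
Il21: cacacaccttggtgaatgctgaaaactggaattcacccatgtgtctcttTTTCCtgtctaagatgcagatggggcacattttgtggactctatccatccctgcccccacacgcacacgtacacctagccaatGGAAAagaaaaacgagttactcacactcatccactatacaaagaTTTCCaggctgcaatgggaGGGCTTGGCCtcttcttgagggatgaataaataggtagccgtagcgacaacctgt
Both Il17 promoters held the nuclear receptor core, from -120 to -115 in Il17a and from -58 to -53 in Il17f, and a TATA box, from -31 to -26 in Il17a and from -29 to -24 in Il17f. The NFAT core occurred at 2 places in Il17f, apart from the nuclear receptor core. In Il2 the letters GGGCTAACCC match the NF-κB motif on both strands. Windows were found for 9 of the 10 genes. The nuclear receptor core was in 2 of these 9 windows, the Il17a and Il17f ones, against 14.0% of 32851 windows of the same length. The TATA box was in 6 of 9 against 12.4%, the NFAT core in 8 of 9 against 55.6%, the NF-κB motif in 6 of 9 against 45.8%, the AP-1 motif in 1 of 9 against 6.75%, and the STAT motif in 1 of 9 against 7.02%. These counts take a match anywhere in the window. The TATA box letters of Il2 and Tnf began at -31 and -29, but those of Il22 and Lta lay far upstream, beginning at -170 and -167. These matches describe the letters of the windows and do not show binding.

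The 10 cytokine genes did not move as one. Il17a, Il17f and Il24 fell in knockout cells, and no member passed the test as higher. Their 3 calls lower (30.0% of 10) stand beside 24.5% of all 15361 tested genes called lower, and their 0 calls higher beside 23.1% called higher, by the edgeR quasi-likelihood test. In either direction 47.6% of all tested genes were called. At an unadjusted p under 0.05, 4 members were lower and 2 higher. By limma-voom 1 member was called higher, and by DESeq2 0. The groups did not overlap in 4 members, Il17a and Il17f below WT and Il21 and Csf2 above it, against 58.2% of all tested genes, with 29.4% wholly below WT and 28.8% wholly above it. The median log2 fold change of the members was -0.51, against 0.0087 over all tested genes.

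**Figure D1:**
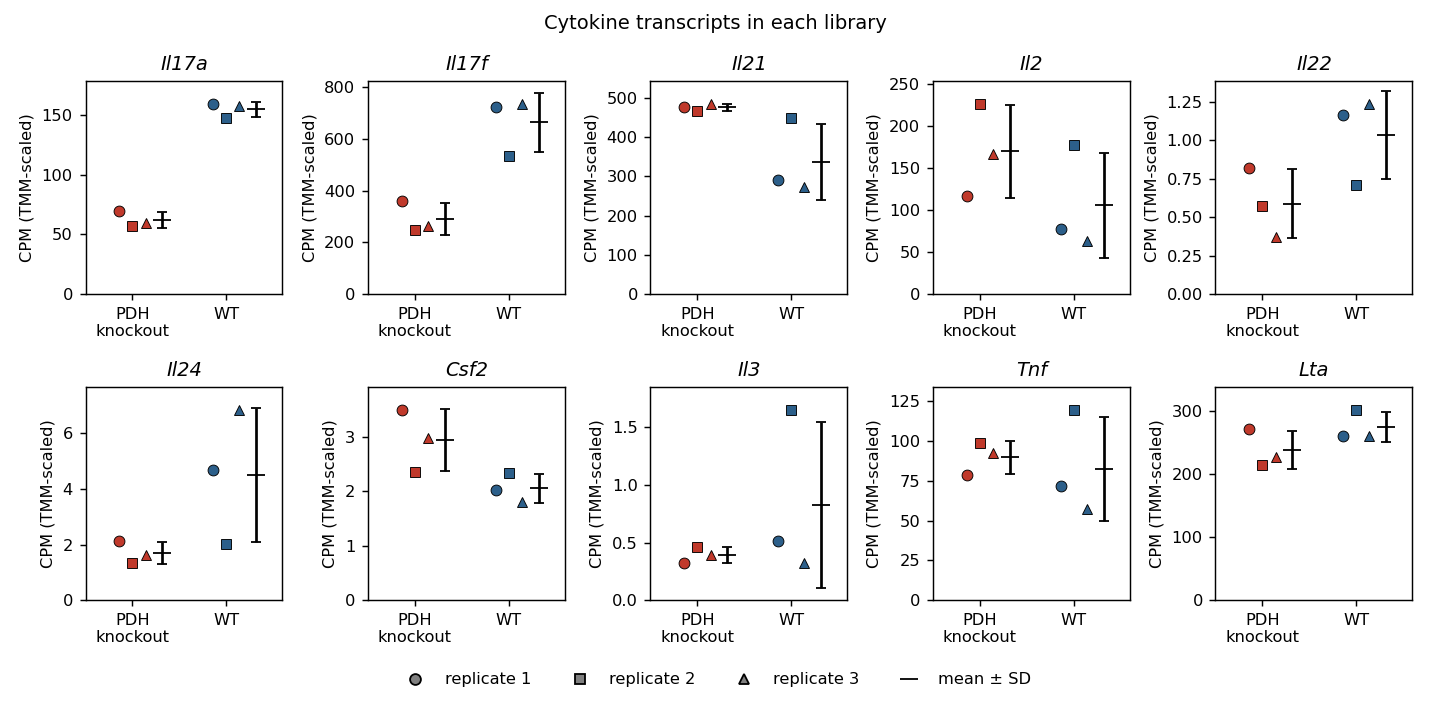
Levels of the 10 cytokine transcripts (CPM, TMM-scaled, axis from 0) in each PDH knockout and WT library, with group mean ± SD (n = 3). Il17a and Il17f are lower in every knockout library than in any WT library, while WT replicate 2 (square) lies nearer the knockout values for Il21 and Il2.

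Il17a (ENSMUSG00000025929.5), the signature cytokine of Th17 cells, was at 69.8, 57.0 and 59.8 CPM in knockout replicates 1 to 3, against 159, 147 and 157 CPM in WT replicates 1 to 3. The knockout values lay close together and all far below the WT values. Its level in knockout was 40.3% of that in WT, a log2 fold change of -1.31 ± 0.08 (edgeR adjusted p = 1.02e-05). Il17f (ENSMUSG00000041872.10), its closest relative and partner in the heterodimer, was at 361, 248 and 262 CPM in knockout libraries and 723, 533 and 736 CPM in WT libraries. Again no knockout value reached a WT value, although WT replicate 2 was the lowest of its group and knockout replicate 1 the highest of its own. Il17f was at 43.7% of its WT level (-1.19 ± 0.19, edgeR adjusted p = 0.00341). Both calls held without any single library, with log2 fold changes from -1.41 to -1.26 for Il17a and from -1.38 to -1.09 for Il17f. Markers of γδ T cells, another source of IL-17, were higher in knockout libraries, at 9.14, 10.8 and 16.7 CPM summed, than in WT libraries, at 6.15, 5.02 and 4.55 CPM summed (exact permutation over libraries, p = 0.1, the smallest possible, adjusted p = 0.267 over 8 marker lists). In the edgeR fit 6 of these 7 markers rose, against 23.1% of all tested genes. The other, Blk, was not called. Sox13, 1 of the 6, was at 0.759 CPM in knockout and 0.184 CPM in WT libraries. The deposited table keeps genes with 10 or more counts in at least 3 libraries, and Sox13 met this only with the knockout libraries. By library totals Blk was at 0.0761, 2.04 and 4.67 CPM in knockout replicates 1 to 3 and at 0.0533, 0.939 and 0.0247 CPM in WT replicates 1 to 3. It was thus highest in the libraries raised in B cell markers. The part of these markers in the Il17a and Il17f values was not tested. In bulk RNA, fewer cells making a transcript and less of it per cell cannot be told apart.

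The ratio of Il17f to Il17a counts differed between the groups by less than the spread between replicates. It was 5.18, 4.34 and 4.39 in knockout libraries and 4.55, 3.62 and 4.68 in WT libraries, with overlapping groups. On the log2 scale the ratio averaged 2.21 ± 0.14 in knockout and 2.09 ± 0.20 in WT (SD, n = 3 each), a difference of 0.12 (two-sided exact permutation p = 0.6). With 3 libraries a group, that test cannot give less than 0.1. With 1 library left out the difference ran from 0.0016, without WT replicate 2, to 0.19, without WT replicate 3.

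Il24 and Il22, the IL-10 relatives, were both scarce. Il24 (ENSMUSG00000026420.17) had 86, 47 and 57 counts in knockout libraries and 173, 77 and 277 counts in WT libraries, or 2.13, 1.35 and 1.62 CPM against 4.67, 2.02 and 6.84 CPM. WT replicate 2 lay just under knockout replicate 1, so the groups overlapped. Il24 fell by 1.41 ± 0.43 on the log2 scale (edgeR adjusted p = 0.0315), and the call was lost without any 1 library other than WT replicate 2 (adjusted p from 0.0519 to 0.0983). Il22 (ENSMUSG00000074695.4) had 33, 20 and 13 counts in knockout libraries and 43, 27 and 50 counts in WT libraries, that is 0.817, 0.573 and 0.368 CPM against 1.16, 0.707 and 1.24 CPM. Here too WT replicate 2 was the lowest of its group and fell within the knockout range. Its log2 fold change was -0.81 ± 0.34 (edgeR adjusted p = 0.0758), and it passed without WT replicate 2 (adjusted p = 0.0308) or knockout replicate 1 (adjusted p = 0.0328).

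Il21 and Il2, neighbours that both signal through receptors with the common γ chain, were higher on average in knockout cells. Il21 (ENSMUSG00000027718.9) was at 475, 468 and 485 CPM in knockout libraries and 291, 449 and 273 CPM in WT libraries. The 3 knockout values were nearly equal and all above the WT values, and WT replicate 2 lay much closer to them than to the other WT libraries. The difference was 0.50 ± 0.19 and was not called (edgeR adjusted p = 0.0811). Without WT replicate 2 it was 0.75 and was called (adjusted p = 3.89e-05). Il2 (ENSMUSG00000027720.8) was at 117, 226 and 166 CPM in knockout libraries and 77.1, 177 and 62.9 CPM in WT libraries, a difference of 0.68 ± 0.53 (edgeR adjusted p = 0.351). WT replicate 2 stood above 2 of the 3 knockout libraries. Without it the difference was 1.28 (adjusted p = 0.0703). The libraries high in B cell markers were also the 3 highest in Il2. Leaving those 3 out keeps a single knockout library, replicate 1, which is assumed to vary as the WT libraries do. The 3 libraries were picked from these same counts. In that comparison Il21 was at 0.76 and Il2 at 0.74, while Il17a and Il17f were still lower at -1.18 and -1.01. The ratio of Il21 to Il2 counts ran from 2.07 to 4.08 in knockout and from 2.54 to 4.35 in WT libraries (log2 difference -0.25, exact permutation p = 0.6). That difference was -0.50 without knockout replicate 1 and -0.0065 without knockout replicate 2.

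**Figure D2:**
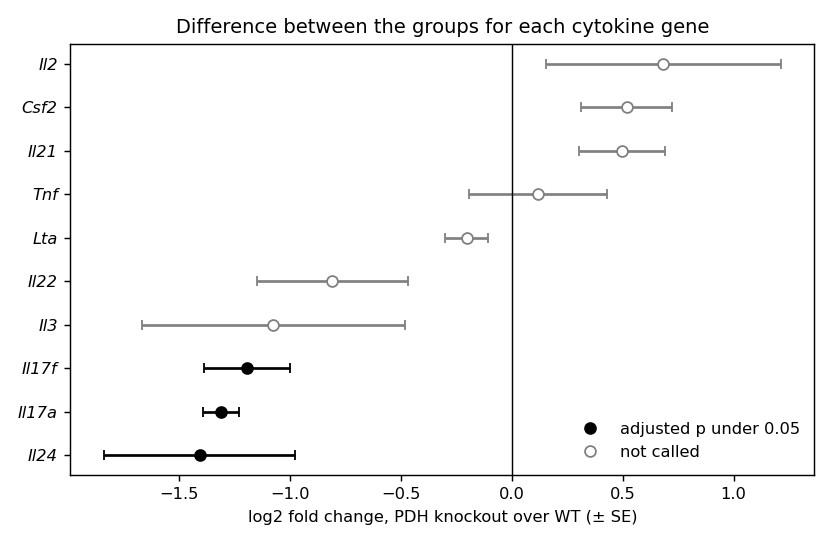
Log2 fold change of PDH knockout over WT for each cytokine gene, with the SE as bars and called genes filled. Il24, Il17a and Il17f lie below -1 and are called, Il3 lies below -1 with a wide error and is not, and Il21, Csf2 and Il2 lie near 0.5 to 0.7 without a call.

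Csf2 and Il3, neighbours that encode growth factors for myeloid cells, were low. Csf2 (ENSMUSG00000018916.6) had 141, 82 and 105 counts in knockout libraries and 75, 89 and 73 counts in WT libraries, or 3.49, 2.35 and 2.98 CPM against 2.03, 2.33 and 1.80 CPM. The lowest knockout value lay barely above the highest WT value. The difference of 0.52 ± 0.21 was not called (edgeR adjusted p = 0.0614), and it passed without WT replicate 2 (adjusted p = 0.0472) or knockout replicate 2 (adjusted p = 0.0403). Il3 (ENSMUSG00000018914.6) had 13, 16 and 14 counts in knockout libraries and 19, 63 and 13 counts in WT libraries. Its log2 fold change of -1.07 ± 0.59 (edgeR adjusted p = 0.169) came with WT replicate 2 far above all other libraries. Without that library it was -0.089, and without WT replicate 3 it was -1.46 and called (adjusted p = 0.0389). The ratio of Csf2 to Il3 counts was higher by 1.24 on the log2 scale in knockout libraries (exact permutation p = 0.2, adjusted p = 0.4 over the 4 pairs). It was 0.67 without WT replicate 2 and 1.66 without WT replicate 3.

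Tnf and Lta encode the TNF family cytokines that share the receptors TNFR1 and TNFR2. Tnf (ENSMUSG00000024401.15) was at 78.4, 98.6 and 92.2 CPM in knockout libraries and 71.5, 119 and 57.0 CPM in WT libraries. Both the highest and the lowest value belonged to WT, and the difference was 0.12 ± 0.31 (edgeR adjusted p = 0.784). Without WT replicate 2 it was 0.48 and called (adjusted p = 0.0299), and without WT replicate 3 it turned to -0.091. Lta (ENSMUSG00000024402.6) was at 271, 215 and 227 CPM in knockout libraries and 259.6, 300.9 and 259.9 CPM in WT libraries (-0.20 ± 0.10, edgeR adjusted p = 0.112). Knockout replicate 1 was the one that overlapped WT, and without it Lta was called lower at -0.31 (adjusted p = 0.0169). The ratio of Lta to Tnf counts differed by -0.39 on the log2 scale between knockout and WT libraries (exact permutation p = 0.2, adjusted p = 0.4), and by -0.62 without WT replicate 2 and -0.19 without WT replicate 3.

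**Figure D3:**
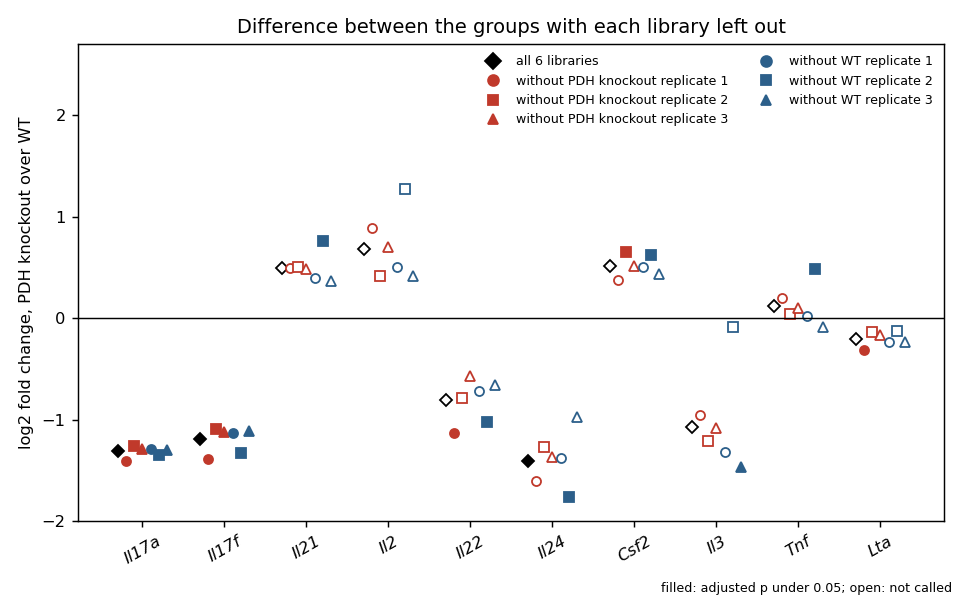
Log2 fold change of PDH knockout over WT for each cytokine gene with all 6 libraries (diamond) and with each library left out, filled where called. Il17a and Il17f are filled at every point, and leaving out WT replicate 2 (blue square) moves Il3 to -0.089 and Il2 to 1.28.

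Per length, taking the longest GENCODE M21 transcript of each gene, the order of the levels differed between the groups. In knockout cells Il17f led at 246 CPM per kb, followed by Lta at 172, Il21 at 155, Il2 at 148, Tnf at 54.8 and Il17a at 53.1 CPM per kb. WT cells had Il17f at 564 CPM per kb, then Lta at 198, Il17a at 132, Il21 at 109.9, Il2 at 92.2 and Tnf at 50.4 CPM per kb. Il17a thus ranked 6th of 10 in knockout and 3rd in WT cells. In knockout libraries Lta (155 to 196 CPM per kb), Il21 (152 to 158) and Il2 (102 to 198) overlapped, as did Tnf (47.8 to 60.2) and Il17a (48.7 to 59.6). In WT libraries Il17f (452 to 624), Lta (188 to 218) and Il17a (126 to 136) were apart from each other, while Il21 (88.9 to 146) and Il2 (54.9 to 154) spread across Il17a. The other 4 genes were far lower, from 0.528 CPM per kb for Il22 to 3.67 for Csf2 in knockout and from 0.932 for Il22 to 3.82 for Il24 in WT cells. With all annotated exons as the length, Il17f stayed first in WT at 328 CPM per kb and ranked 3rd in knockout at 144 CPM per kb, and the ranks of Il17a were the same. The 10 transcripts summed to 1379, 1316 and 1297 CPM in knockout libraries and to 1590, 1732 and 1556 CPM in WT libraries. Il17a and Il17f held 31.2, 23.1 and 24.8% of that sum in knockout and 55.5, 39.3 and 57.4% in WT libraries.

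**Figure D4:**
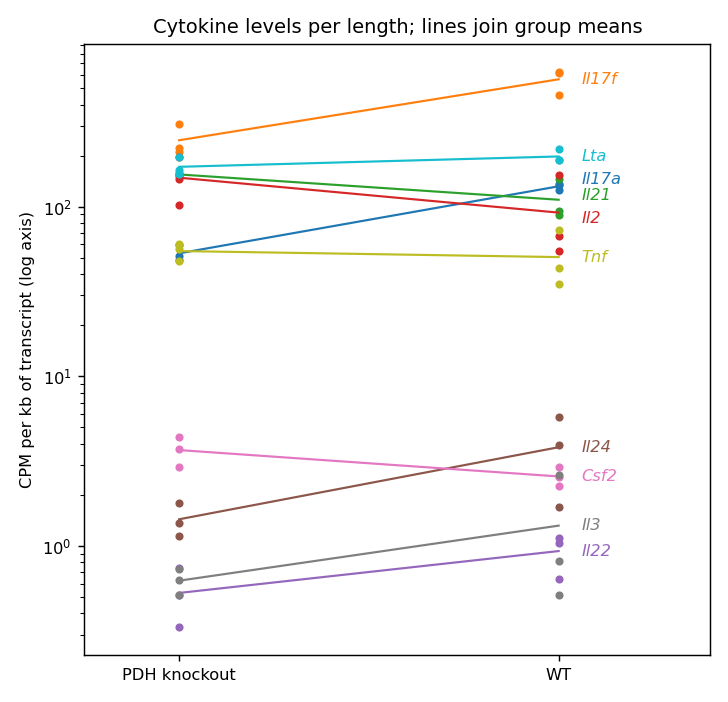
Level of each cytokine transcript per kb of its longest annotated transcript (CPM per kb, log axis) in PDH knockout and WT libraries, with points for libraries and lines joining group means. The line of Il17a, with means of 53.1 CPM per kb in knockout and 132 CPM per kb in WT cells, crosses those of Il21 and Il2.

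Genes near the cytokine loci did not share their direction. Of the 36 tested genes that are the 3 nearest on each side of the 6 loci, 5 rose, 7 fell and 24 were not called. Beside this count and the list counts below, 23.1% of all tested genes were called higher and 24.5% lower. Beside Il17a and Il17f the predicted genes Gm37315 (0.96 ± 0.24) and Gm28756 (0.70 ± 0.19) rose (edgeR adjusted p = 0.00823 and 0.0136). Around Il2 and Il21, Ccna2, a cyclin of S phase, and Cetn4, a centrin, fell by 0.40 and 0.25 on the log2 scale. Next to Csf2 and Il3, Acsl6, a fatty acyl-CoA synthetase, fell by 1.59 and Pdlim4 by 1.03. Near Il24, Yod1, a deubiquitinase, rose by 0.57 and Mapkapk2, a kinase that acts on cytokine mRNA stability, fell by 0.41, and near Il22 Dyrk2 and Cand1 fell by 0.41 and 0.19. Ifng, which encodes interferon γ and is the nearest tested gene after Il22, was at 0.982 ± 0.567 CPM in knockout and 0.450 ± 0.269 CPM in WT libraries (edgeR adjusted p = 0.0991).

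Other secreted products of T cells moved in both directions. Of 17 tested genes in a list of other T cell cytokines, 4 rose, 4 fell and 9 were not called (median 0.31). Lif, an IL-6 family cytokine, fell to 143 ± 6.66 CPM in knockout libraries, against 302 ± 24.1 CPM in WT libraries (-1.07 ± 0.07, edgeR adjusted p = 1.47e-05), and Osm, its relative, Tgfb1 and Tgfb3 fell by 0.43, 0.35 and 1.30 on the log2 scale. Csf1, the macrophage growth factor, rose to 6.70 ± 0.60 CPM in knockout libraries, against 2.36 ± 0.52 CPM in WT libraries (edgeR adjusted p = 0.000201). Il9 rose by 2.13, Il1a by 1.67 and Il16 by 0.31. Without WT replicate 2 there were 8 genes higher in this list, and without WT replicate 3 there were 2. Of 12 tested TNF superfamily ligands, 6 rose and 2 fell (median 0.53). Tnfsf8, the CD30 ligand, rose to 227 ± 13.3 CPM in knockout libraries, against 76.8 ± 6.42 CPM in WT libraries (1.56 ± 0.08, edgeR adjusted p = 3.4e-06), and Cd70 and Tnfsf15 rose by 2.55 and 1.84. Tnfsf15 was scarce in WT libraries, at 0.252 CPM, and met the table's limit on counts only with the knockout libraries. The ligands that fell were Fasl (-1.95) and Cd40lg (-0.92), and Cd40lg lost its call without knockout replicate 1 or without knockout replicate 3 (adjusted p = 0.0591 and 0.0562).

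Of 9 chemokine genes of T cells, 5 rose and 1 fell (median 1.44). When genes needed 50 counts in 3 libraries, 2 chemokine genes were called higher. Ccl20, the ligand of CCR6 and a chemokine that Th17 cells make, rose to 41.3 ± 3.24 CPM in knockout libraries, against 15.3 ± 4.02 CPM in WT libraries (1.44 ± 0.17, edgeR adjusted p = 0.000538). Ccl22 and Cxcl10 rose by 2.45 and 1.82, and Ccl5 rose too. Cxcl2, also counted as risen, was at 0.565 CPM in knockout and 0.0864 CPM in WT libraries (2.66). It met the table's limit, 10 or more counts in at least 3 libraries, only through the knockout libraries. Its direction was thus set by that filter and is no finding. Ccl4 fell by 1.02, a call that was lost without WT replicate 1 or without any 1 knockout library. Markers of dendritic cells (5 of 8 in the table) also had higher sums, at 16.1, 15.8 and 18.8 CPM in knockout libraries, against 9.05, 13.1 and 10.9 CPM in WT libraries (exact permutation p = 0.1, adjusted p = 0.267). Itgax and Zbtb46 rose among them. Itgax, at 0.561 CPM in knockout and 0.0779 CPM in WT libraries, likewise met the table's limit only through the knockout libraries. Batf3, also counted below with the AP-1 genes, was the largest part of every sum, at 6.85 to 12.2 CPM in knockout and 7.03 to 8.93 CPM in WT libraries. Batf3, Flt3 and Xcr1 were not called (edgeR adjusted p = 0.555, 0.326 and 0.135). Flt3 was highest in WT replicate 2 and knockout replicates 2 and 3. Markers of NK and innate lymphoid cells (3 of 8 in the table) summed to 7.13 to 10.5 CPM in knockout and 5.71 to 7.22 CPM in WT libraries, and Klrk1 and Kit rose. Myeloid markers (5 of 12 in the table) summed to 5.18 to 9.29 CPM in knockout and 8.68 to 22.1 CPM in WT libraries. Mast cell and basophil markers (3 of 6) summed to 1.98 to 4.44 CPM in knockout and 1.27 to 2.65 CPM in WT libraries, and CD8 markers (2 of 2) to 5.58 to 14.9 CPM in knockout and 8.68 to 11.3 CPM in WT libraries. Every gene in the table has at least 3 libraries at 10 or more counts, so no marker in it could be at 0 throughout. Scarcer markers had been left out of it. The part of these cells, and of the B cells above, in the cytokine, ligand and chemokine values was not tested.

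**Figure D5:**
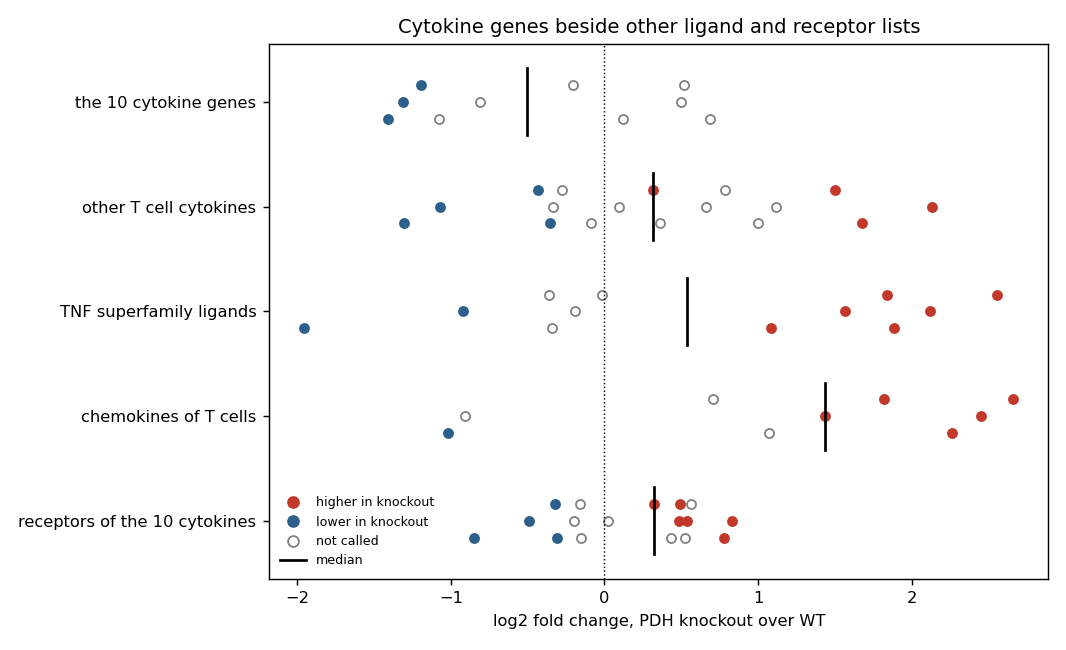
Log2 fold change of PDH knockout over WT for the 10 cytokine genes and for 4 lists of other ligands and receptors, 1 point a gene, with called genes in colour and the list median as a bar. The cytokine genes have a median of -0.51, and the chemokine list has a median of 1.44.

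Of 17 tested genes that encode receptors for the 10 cytokines, 6 rose, 4 fell and 7 were not called (median 0.32). The genes that fell were Tnfrsf1a, which encodes TNFR1 (18.5 ± 0.31 CPM in knockout and 33.3 ± 1.29 CPM in WT, SD, n = 3 each, -0.85 ± 0.07, edgeR adjusted p = 3.08e-05), Tnfrsf1b, which encodes TNFR2 (-0.32), Il10rb, a subunit of the IL-22 receptor (-0.49), and Il2rg, the common γ chain (-0.31). Csf2ra, the GM-CSF receptor α chain, rose by 0.49, and Tnfrsf14, a receptor for lymphotoxin α and LIGHT, by 0.48. Il21r rose by 0.32. Il2ra and Il2rb were not called (edgeR adjusted p = 0.241 and 0.0611), nor was Il17ra (0.025 ± 0.06, edgeR adjusted p = 0.761). The number of receptor genes that rose was 3 without knockout replicate 1, knockout replicate 2 or WT replicate 1, and 1 without the 3 libraries high in B cell markers. Tnfrsf14 was not called without those 3 libraries (adjusted p = 0.179).

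Genes that act upstream of these cytokines were called in both directions. Of 22 tested genes for Th17-inducing receptors, STATs and SMADs, 9 rose and 8 fell (median 0.031). Socs3, a feedback inhibitor of IL-6 signals, fell to 57.9 ± 5.48 CPM in knockout libraries, against 109.4 ± 12.6 CPM in WT libraries (-0.92 ± 0.10, edgeR adjusted p = 0.00013). Il23r and Stat4, which carry IL-23 and IL-12 signals, fell as well, by 2.28 and 1.65. Of 24 transcription factors known at cytokine loci, 6 rose and 7 fell (median -0.063). Maf, a factor that acts at the Il21 and Il10 genes, rose by 0.78, and Hif1a, Ets1 and Runx3 fell by 1.23, 0.74 and 0.61. Of 21 NFAT, AP-1 and NF-κB genes, 6 rose and 4 fell (median 0.070). Fosl2, an AP-1 subunit that acts in Th17 cells, fell to 42.4 ± 5.21 CPM in knockout libraries, against 186 ± 21.5 CPM in WT libraries (-2.13 ± 0.11, edgeR adjusted p = 1.02e-05). Nfkb1, Nfkbib and Rel fell by 0.43, 0.46 and 0.34, and Nfkbia, Jun and Nfkb2 rose by 1.11, 0.92 and 0.70.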

How the data were processed

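Messenger RNA was sequenced from 3 PDH knockout and 3 WT libraries, grouped by the genotype label. The authors deposited expected counts: whole-number estimates of the reads of each gene. Salmon, DESeq2 and DESeq are named in the submitters' processing notes, without versions or roles, and neither build nor annotation is given in the sources used here. The table has 15452 genes, and none has fewer than 3 libraries at 10 or more counts, so scarcer genes had been left out of it. Symbols were matched through GENCODE M21, ignoring ID versions, which gave 15138 of them a name. How estimated counts divide between genes of similar sequence, or whether counting used strand, is not given, so values of overlapping or antisense genes are uncertain.

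The deposited counts were fitted in edgeR 4.0.16 (R 4.3.3): filterByExpr left 15361 genes, TMM scaling was used, and the robust quasi-likelihood F test with genotype as the only term was adjusted by Benjamini-Hochberg over all tested genes (threshold 0.05). The test was tried on simulated counts. Ratios and summed markers were compared by two-sided exact permutation over the 20 assignments of libraries. Total counts were 33802154 to 40407124, the biological coefficient of variation was 13.8%, and no replicates were near-identical. The 19 alternatives were other scalings, filters and tools (DESeq2 1.42.0, limma 3.58.1), a replicate block, each library left out and removals of libraries or entries, and the B cell marker covariate. That covariate was added last, after the data were seen. The 3 libraries high in B cell markers and the removed entries were also picked from the values of these libraries.

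The members and lists were chosen with earlier results of these data known. All 10 members are named, with up to 4 called genes a list by smallest p (1 where none was called), up to 2 called neighbours a locus and the 5 genes most like Il17a. Il2ra, Il2rb, Il17ra, Il21r, Ifng and other genes counted in small numbers were named after their values were seen. Some genes counted in the lists are not reported here by name. Promoter sequences are RefSeq's (GRCm38.p6).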

Additional observations from a re-analysis of the deposited data

How the results depend on the processing

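Il17a and Il17f were called lower under all 19 alternatives, with log2 fold changes from -1.41 to -1.18 and from -1.38 to -0.97. The number of members called lower was 3 in 12 alternatives, 2 in 5 and 4 in 2, and from 2 to 4 with each library left out. The number called higher was 2 with upper-quartile factors and 2 when genes needed 50 counts in 3 libraries (Il21 and Csf2 in both), 1 by limma-voom and 1 without the robust estimate (Il21), 3 without the 3 libraries high in B cell markers, and from 0 to 3 with each library left out. Il24 lost its call in 8 of 19 alternatives (adjusted p from 0.0519 to 0.0983), among them limma-voom, the test against a 1.2-fold change and the B cell marker covariate. Tnf turned to -0.091 without WT replicate 3 (the highest value without 1 library was 0.48) and to -0.084 with the B cell marker covariate, and Lta to 0.065 without the 3 libraries high in B cell markers. Against a fold change of 1.2, 3981 genes of the table and 50 genes of the other lists passed. The cause of these shifts was not tested. Upper-quartile factors called 7309 genes, 60.0% of them higher, where TMM called 7311, 48.5% of them higher. Same-numbered libraries did not deviate together (r = -0.10, 0.09 and -0.26 for replicates 1 to 3), so the numbers were not taken as pairs. With the replicate number as a block, 7218 genes were called, and 3 members were lower. Other pseudocounts moved the ratios within neighbour pairs by less than the spread between replicates, while leaving out 1 library brought Il17f over Il17a to as little as 0.0016 and Il21 over Il2 to -0.0065. With as few as 13 counts a library, Il3 and Il22 are limited by depth.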

Other observations

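Genes that control the life of cytokine mRNAs, and genes that respond to IL-2, were also read. Of 16 tested genes of cytokine mRNA turnover, 5 rose and 2 fell (median log2 fold change 0.13). Rc3h2, which encodes Roquin-2, a repressor of cytokine mRNAs, rose to 69.5 ± 2.39 CPM in knockout libraries, against 41.7 ± 2.68 CPM in WT libraries (0.74 ± 0.07, edgeR adjusted p = 4.36e-05). Tia1, Zc3h12d, Zc3h12c and Zfp36l1 rose by 0.44, 0.35, 0.65 and 0.56. Hnrnpd, which encodes the AU-rich element binding protein AUF1, fell by 0.85, and Elavl1 by 0.20, a call lost without knockout replicate 2, knockout replicate 3, WT replicate 1 or WT replicate 2. The Elavl1 call was also lost with upper-quartile factors (adjusted p = 0.113), library totals, the filter at 50 counts, the test against a 1.2-fold change and the B cell marker covariate, and without the 3 libraries high in B cell markers (-0.093). Of 15 genes listed as responding to IL-2 and STAT5, Lta among them, 4 rose and 5 fell (median -0.15). Pim2 and Cish, targets of STAT5, rose by 0.87 and 0.33, as did Bcl2l1 and Ccnd2 by 0.80 and 0.58, while Tnfrsf9, Tnfrsf4, Osm, Socs1 and Ccnd3 fell.

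The 5 genes whose log2 CPM followed Il17a most closely over the 6 libraries, among 8993 genes averaging 10 CPM or more, were Fig4, Pja1, Elovl5, Cdca3 and Edem2 (Pearson r from 0.998 to 0.999). All share the gap between the groups, and 1104 genes had r over 0.95.

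Summed over all genes, knockout replicate 2 differed most from its partners, with a chi-square per degree of freedom of 154 and 143. It was 30.1 between the other 2 knockout libraries and 24.1 to 26.7 among WT libraries. The sum includes the 27 genes raised in knockout replicate 2, which held 5.85% of its counts. It was not computed without them. How often WT replicate 2 and knockout replicate 1 were the highest or lowest library of their group was also counted. With 3 libraries in a group, each is the highest or lowest for 2 of 3 genes on average. The shares of the other libraries were not computed, so these counts do not mark the 2 libraries as unusual. WT replicate 2 was the highest or lowest WT library for 10 of 10 members, against 77.7% of all tested genes, and knockout replicate 1 was so in its group for 9 of 10, against 70.0%. Relative to the mean of the other libraries of its group, knockout replicate 1 was at 0.50 for Il17f, 0.51 for Il24, 0.76 for Il22, -0.73 for Il2 and -0.28 for Tnf on the log2 scale, where WT replicate 2 was at -0.45, -1.46, -0.72, 1.34 and 0.90. For Csf2 and Lta both deviated upwards, knockout replicate 1 by 0.39 and 0.30 and WT replicate 2 by 0.28 and 0.21. The deviations had opposite signs in 8 of 10 members, among them Il21 with a deviation of only -0.0020 in knockout replicate 1, against 45.9% of all tested genes, and over the 10 members their Pearson r was -0.87, against -0.10 over all tested genes. Pearson r between members over the 6 libraries ran from -0.96 (Il24 and Il2) to 0.97 (Il17a and Il17f). The 10 members are thus not independent values, and the 2 libraries were picked after the values were seen. These are descriptions of 6 libraries, seen after the values were known. B cell markers were low in knockout replicate 1 and raised in WT replicate 2. The part of those cells in the cytokine values was not tested.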
